A study of Mus musculus with 18 samples.

Results

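The RNA levels of 10 goblet cell genes were followed in the small intestinal crypts of adult mice after induced deletion of Prmt1, the gene of an arginine methyltransferase. The genes were Muc2, Tff3, Fcgbp, Clca1, Zg16, Agr2, Spdef, Spink4, Gfi1 and Retnlb, and they were taken by name from the 55335 genes of the count table as products and regulators of goblet cells. KO mice (PRMT1 fl/fl;Vil-CreERT2) had LoxP sites in Prmt1 and a tamoxifen-activated Cre under the villin promoter, which is active throughout the intestinal epithelium, so the deletion was not limited to goblet cells. WT mice were PRMT1 fl/fl littermates that lacked CreERT2. Both genotypes were 8 to 12 weeks old and received 2 mg tamoxifen at each injection, of which day 2 mice had 2 and day 7 and day 14 mice had 5, with days counted from the first injection. With 3 KO and 3 WT mice at each time point, there were 6 groups and 18 libraries.

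Prmt1 itself stood at 54.1% of the WT level at day 2, 66.6% at day 7 and 60.9% at day 14 in the fitted model, and passed the test on each day. The libraries held 12844642 to 31493484 counts. Levels are in CPM, the usual scaling of a gene's counts to the size of its library, here with edgeR's TMM factors, and different genes are compared in CPM per kb of merged exons. Gene positions are those of the count table (mm10). WT day 14 replicate 1 was the smallest library, had the highest Muc2, Tff3, Spink4, Clca1, Agr2, Spdef and Gfi1 of its group, and held 735 counts of the gastric mucin Muc5ac. Fold changes of the 10 genes between KO and WT at day 14 that it moved by over 1.5 times or across the threshold are given with and without it. A gene was taken as changed when its adjusted p from edgeR's quasi-likelihood test was under 0.05 over all 21349 genes tested, and this p is given below as the edgeR adjusted p. The test passed 0.0328% of all tested genes at day 2, 17.3% at day 7 (7.11% higher and 10.2% lower) and 7.92% at day 14 (3.23% higher and 4.69% lower).

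Goblet cells are the mucus-secreting cells of the intestinal epithelium. They arise in the crypt from secretory progenitors under the transcription factor Atoh1, together with Paneth and enteroendocrine cells, and migrate onto the villus. Their main product is the gel-forming mucin Muc2, which polymerises into the mucus layer, and they secrete with it a set of small and large proteins that bind to, cut or accompany the gel. Spdef drives their maturation, and Gfi1 takes part in the choice between goblet or Paneth fate and the enteroendocrine fate.

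The RefSeq promoter table (GRCm38.p6) held windows for 5 of the 10 genes, namely Muc2, Fcgbp, Agr2, Spdef and Gfi1. The 250 bases before the start of Muc2, Fcgbp and Spdef are shown, because Muc2 and Fcgbp encode large proteins of the same gel, and Fcgbp was called lower in KO crypts at day 7 while Muc2 was not, and Spdef is the regulator among the genes with the higher values in KO. They lie at chr7:141690090-141690339 on the plus strand, at chr7:28070986-28071235 on the plus strand and at chr17:27728952-27729201 on the minus strand, and are written 5′ to 3′ in the direction of transcription. Capitals mark matches on either strand to TATAAA (a core promoter element), CAGCTG (an E-box, the kind of site that Atoh1 and other basic helix-loop-helix factors bind), TGTTTAC (a forkhead motif) or AGATAAG (a site of the Gata factors).
Muc2: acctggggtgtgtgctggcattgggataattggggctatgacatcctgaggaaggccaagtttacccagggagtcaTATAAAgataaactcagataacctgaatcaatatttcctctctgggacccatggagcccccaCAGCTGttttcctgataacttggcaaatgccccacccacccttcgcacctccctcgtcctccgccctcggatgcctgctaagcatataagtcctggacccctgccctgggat
Fcgbp: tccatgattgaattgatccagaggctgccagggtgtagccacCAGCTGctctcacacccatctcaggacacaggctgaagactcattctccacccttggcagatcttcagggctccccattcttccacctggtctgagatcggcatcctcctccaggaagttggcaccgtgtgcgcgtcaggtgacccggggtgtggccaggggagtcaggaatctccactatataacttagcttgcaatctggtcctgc
Spdef: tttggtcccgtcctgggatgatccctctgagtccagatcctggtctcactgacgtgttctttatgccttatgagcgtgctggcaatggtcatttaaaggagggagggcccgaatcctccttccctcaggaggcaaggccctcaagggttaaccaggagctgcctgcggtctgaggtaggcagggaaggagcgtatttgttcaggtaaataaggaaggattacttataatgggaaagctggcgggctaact
The Muc2 window held TATAAA, beginning 174 bases before the start, and CAGCTG, beginning 112 bases before it. The Fcgbp window held CAGCTG, beginning 208 bases before the start. The windows of Spdef, Agr2 and Gfi1 held none of the 4 motifs, and no matches overlapped. Over all 32851 windows of this length in the table, 12.4% held TATAAA, 13% held CAGCTG, 3.17% held TGTTTAC and 2.74% held AGATAAG.

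In the 9 WT libraries, the goblet cell products stood far above the regulators. Per kb, Tff3 had the highest median level at 872 CPM per kb (704 to 926). Fcgbp followed at 759.8 CPM per kb (629 to 927), Zg16 at 727 CPM per kb (588 to 1022) and Spink4 at 700.0 CPM per kb (539.9 to 990.3), and the ranges of these neighbours overlapped. Muc2 stood at 402 CPM per kb (324 to 561), Agr2 at 233 CPM per kb (182 to 357) and Clca1 at 207 CPM per kb (187 to 263), again with overlapping ranges from each gene to the next. The transcription factors Spdef, at 9.73 CPM per kb (7.51 to 15.5), and Gfi1, at 2.00 CPM per kb (1.28 to 2.84), did not overlap with the genes above them or with each other. Retnlb came last, with 0 to 8 counts in any of the 18 libraries. Muc2 and Fcgbp contain repeated coding sequence, and multi-mapping fragments were left uncounted, so their levels per kb may be understated. Together the 10 genes took 1.03% to 1.85% of the counts of a library.

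**Figure D1:**
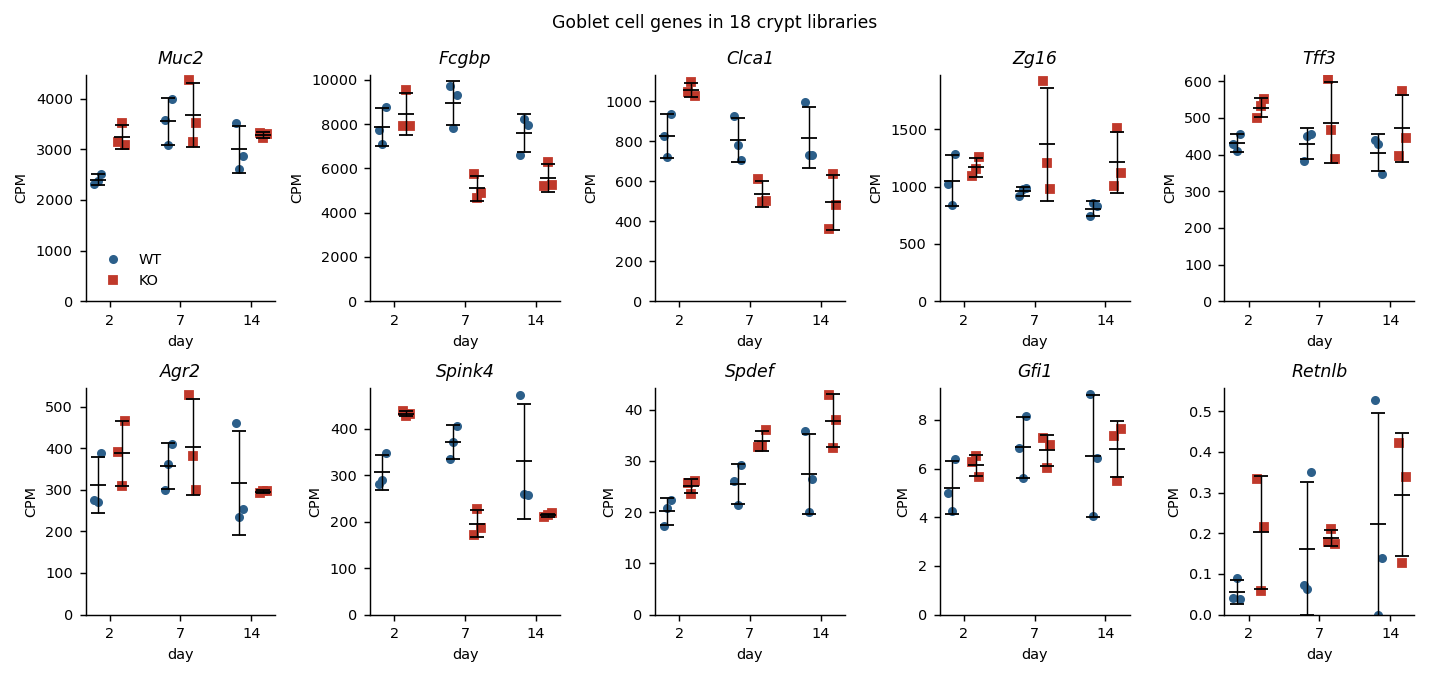
Level of each of the 10 genes in CPM (vertical axis, from 0) by day after the first tamoxifen injection, with 1 point per library for WT (blue circles) and KO (red squares) and black bars for the mean and SD of 3 libraries. Fcgbp, Clca1 and Spink4 of KO lie below those of WT at days 7 and 14, whereas Muc2 overlaps between the genotypes on both days.

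In KO crypts, 3 secreted products of goblet cells were lower than in WT, while the mucin Muc2 and the regulators Spdef and Gfi1 did not pass the test on any day. Spink4, Fcgbp and Clca1 fell at day 7, and Clca1 was also lower at day 14. With 1 library left out, the Clca1 call was kept in 0 of 6 cases at day 7 and in 3 of 6 at day 14. The KO effect differed between days 7 and 14 for none of the 9 genes. None of the 9 genes that could be tested was called higher in the main model. A model with the replicate number as a block within each day was added after the data were seen. It called Spdef higher at day 7 (edgeR adjusted p = 0.029) and day 14 (0.0221). On these days that model called 19.8% and 9.86% of the genes in the fit. At day 2 none passed the test, with 2 at an unadjusted p under 0.05 in edgeR (3.33% of all tested genes) and 0 calls in DESeq2 (0.0609%). Retnlb did not pass the filter on low counts. The 3 lower genes of 9 at day 7 compare with 10.2% of all tested genes called lower, and the 1 of 9 at day 14 with 4.69%. DESeq2's Wald test called the same 3 genes at day 7, with 19.4% of all genes it tested, and 4 genes at day 14, with 9.76%. Of these 4, Fcgbp, Clca1 and Spink4 were lower and Zg16 was higher in KO (log2 fold change 0.59, DESeq2 adjusted p = 0.0493). The median log2 fold change of the 9 genes was 0.31 at day 2, 0.05 at day 7 and 0.08 at day 14, and that of all tested genes was within 0.02 of 0 on each day. With 1 library left out the median of the 9 genes ran from 0.24 to 0.39 at day 2, but from -0.063 to 0.15 at day 7 and -0.17 to 0.28 at day 14, so that its sign was not stable on the later days. It was below 0 without KO replicate 1 or WT replicate 2 at day 7 and without WT replicate 2 at day 14, and 0.28 without WT day 14 replicate 1. In a bulk sample, fewer cells of a type and less RNA per cell cannot be told apart.

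**Figure D2:**
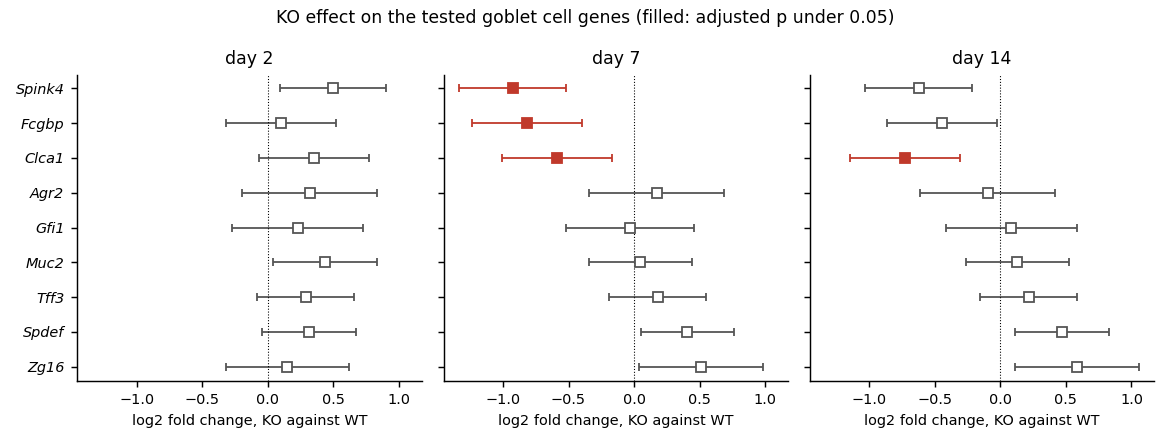
Log2 fold change of KO against WT (horizontal axis) for the 9 tested genes at days 2, 7 and 14, with 95% confidence intervals from edgeR, and filled red squares for genes that passed the test. Spink4, Fcgbp and Clca1 are to the right of 0 at day 2 and to the left at days 7 and 14, and Muc2 stays at 0.44, 0.05 and 0.13.

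Muc2 (ENSMUSG00000025515.15, chromosome 7 from 141690340 to 141754693) encodes the gel-forming mucin, the backbone of intestinal mucus. At day 2 Muc2 measured 3144, 3521 and 3082 CPM in the 3 KO libraries and 2312, 2374 and 2511 CPM in the 3 WT libraries. At day 7 the values were 4369.6, 3145 and 3508 CPM in KO and 3582, 3075 and 3997 CPM in WT, and at day 14 3324, 3216 and 3298 CPM in KO and 3513, 2614 and 2864 CPM in WT. All KO libraries were above all WT libraries at day 2, and the genotypes overlapped on the later days. At day 2 the log2 fold change of 0.44 (SE 0.19, edgeR unadjusted p = 0.031, adjusted p = 0.999) did not pass. It was 0.05 at day 7 (95% interval -0.34 to 0.44, edgeR adjusted p = 0.897) and 0.13 at day 14 (95% interval -0.26 to 0.52, edgeR adjusted p = 0.765), where it was 0.27 without WT replicate 1 (edgeR adjusted p = 0.521). Group means ran from 2399 ± 102 CPM in WT day 2 (SD, n = 3), through 2997 ± 464 in WT day 14, 3249 ± 238 in KO day 2, 3279 ± 56.4 in KO day 14 and 3551 ± 462 in WT day 7, to 3674 ± 629 in KO day 7, and from WT day 14 upward each mean differed from the next by less than the larger of the SDs of the pair.

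Fcgbp (ENSMUSG00000047730.17, chromosome 7 from 28071236 to 28120862) encodes a large mucus protein with repeated von Willebrand D domains that is secreted with Muc2, and its RNA was the most abundant of the set by CPM. At day 2 it measured 7913, 9545 and 7918 CPM in KO and 7737, 7105 and 8762 CPM in WT, and the genotypes overlapped. At day 7 it measured 5727, 4653 and 4906 CPM in KO and 9729.6, 7837 and 9335 CPM in WT. Every KO library was then below every WT library, and the means were 5095 ± 561 CPM (KO) and 8967 ± 999 CPM (WT; SD, n = 3 each). Fcgbp fell to 56.8% of WT (-0.82 on the log2 scale, SE 0.20, edgeR adjusted p = 0.00834), and passed the test with each of the 6 libraries left out in turn (edgeR adjusted p = 0.0112 to 0.0442). At day 14 it measured 5187, 6282 and 5232 CPM in KO and 6601, 8211 and 7976 CPM in WT. The KO libraries were again lower, but the log2 fold change of -0.45 (SE 0.20) did not pass edgeR's test (adjusted p = 0.195), whereas DESeq2's Wald test gave an adjusted p of 0.019.

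Clca1 (ENSMUSG00000028255.6, chromosome 3 from 145003817 to 145032776) encodes a secreted metalloprotease that cleaves Muc2 in the mucus gel. Day 2 values were 1045, 1096 and 1025 CPM in KO and 824, 719 and 937 CPM in WT, with the KO libraries above. At day 7 the order had turned, with 611, 496 and 499.6 CPM in KO and 927, 783 and 707 CPM in WT, and at day 14 KO libraries had 362, 637 and 481 CPM and WT libraries 994, 729 and 729.9 CPM. The genotypes did not overlap on either day. Clca1 was at 66.4% of WT at day 7 (log2 fold change -0.59, SE 0.20, edgeR adjusted p = 0.0488) and at 60.4% at day 14 (log2 fold change -0.73, SE 0.20, edgeR adjusted p = 0.0295). The call at day 7 lies at the threshold: it was lost whichever of the 6 libraries was left out (edgeR adjusted p = 0.0571 to 0.19), with the replicate number as a block over all days (0.066) or within each day (0.0524) and with the 20 removed genes kept (0.0517). The call at day 14 was lost without KO replicate 1 (log2 fold change -0.54, edgeR adjusted p = 0.15), KO replicate 3 (-0.70, 0.0985) or WT replicate 1 (-0.56, 0.124), and when the 6 day 14 libraries were modelled alone (0.0865).

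Zg16 (ENSMUSG00000049350.6, chromosome 7 from 127050156 to 127087328) encodes a small lectin-like protein that binds the cell wall of Gram-positive bacteria in the mucus. In KO crypts it measured 1094, 1149.6 and 1257 CPM at day 2, 1918, 1208 and 979 CPM at day 7 and 1008, 1511 and 1116 CPM at day 14. In WT crypts it measured 1026, 842 and 1284 CPM, 914, 977 and 985 CPM and 739.6, 859 and 827 CPM. At day 7 a single KO library, replicate 1, was far above the others, and at day 14 all 3 KO libraries were above the WT libraries. On the log2 scale KO differed from WT by 0.51 at day 7 (SE 0.23, edgeR adjusted p = 0.131) and 0.58 at day 14 (SE 0.23, edgeR adjusted p = 0.127), and neither passed. The day 7 value was 0.21 without KO replicate 1 (edgeR adjusted p = 0.609) and 0.73 without KO replicate 3, which passed (edgeR adjusted p = 0.0241). At day 14 DESeq2's Wald test gave an adjusted p of 0.0493. The gene model of Zg16 overlaps Gm44939 and Gm22747.

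Spink4 (ENSMUSG00000028415.4, chromosome 4 from 40920052 to 40931395) encodes a small secreted Kazal-type protease inhibitor of goblet cells, and it had the largest log2 fold change of the set. At day 2 it measured 438, 427 and 431 CPM in KO and 281, 288 and 348 CPM in WT. At day 7 the values were 172, 228 and 186 CPM in KO and 334, 372 and 406 CPM in WT, and at day 14 209.9, 213 and 217 CPM in KO and 472, 259 and 258 CPM in WT. The genotypes did not overlap on any of the 3 days, with KO higher at day 2 and lower at days 7 and 14. Day 7 means were 195 ± 29.1 CPM (KO) and 371 ± 36.2 CPM (WT; SD, n = 3 each). Spink4 fell to 52.6% of WT at day 7 (-0.93 on the log2 scale, SE 0.20, edgeR adjusted p = 0.00276), and passed whichever of the 6 libraries was left out (edgeR adjusted p = 0.00471 to 0.0221). The day 2 value of 0.50 (SE 0.19, edgeR unadjusted p = 0.0187, adjusted p = 0.999) and the day 14 value of -0.63 (SE 0.19, edgeR adjusted p = 0.0544) did not pass. At day 14 WT replicate 1 stood far above the other WT libraries. Without that library the log2 fold change was -0.27 (edgeR adjusted p = 0.371), and without WT replicate 2 or 3 it was -0.77 or -0.76 and passed (edgeR adjusted p = 0.0302 and 0.031). DESeq2's Wald test passed it with all libraries (adjusted p = 0.0213).

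Tff3 (ENSMUSG00000024029.4, chromosome 17 from 31125306 to 31129646) encodes the trefoil peptide that goblet cells release with mucus and that promotes epithelial repair. It ranged from 347 to 606 CPM over the 18 libraries. All KO libraries (500.4, 532 and 552 CPM) were above all WT libraries (428, 409.8 and 456 CPM) at day 2, and the genotypes overlapped later. The log2 fold change was 0.29 at day 2 (95% interval -0.08 to 0.66), 0.18 at day 7 (-0.19 to 0.55) and 0.22 at day 14 (-0.15 to 0.59), and none passed the test (edgeR adjusted p = 0.999, 0.546 and 0.533). With 1 library left out the value ran from 0.014 to 0.34 at day 7 and from 0.067 to 0.34 at day 14, and passed in no case.

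Agr2 (ENSMUSG00000020581.11, chromosome 12 from 35992907 to 36004087) encodes a protein disulfide isomerase of the endoplasmic reticulum needed for Muc2 folding. Its levels ranged from 235 to 529 CPM and overlapped between the genotypes on each day. The log2 fold change was 0.32 at day 2 (95% interval -0.20 to 0.84), 0.17 at day 7 (-0.34 to 0.69) and -0.10 at day 14 (-0.62 to 0.42), with edgeR adjusted p of 0.999, 0.698 and 0.875. At day 14 the 3 KO libraries measured 292, 298 and 298 CPM and the WT libraries 461, 235 and 254 CPM. WT replicate 1 was the high one, and without it the value was 0.28 (edgeR adjusted p = 0.566).

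Retnlb (ENSMUSG00000022650.7, chromosome 16 from 48816856 to 48818892), which encodes the resistin-like molecule RELMβ that goblet cells release during type 2 immune responses and that acts against bacteria and worms, was close to undetected. Its 9 KO libraries held 40 counts in all and its 9 WT libraries 25. By group the sums were 11 and 4 in KO and WT at day 2, 14 and 11 at day 7, and 15 and 10 at day 14. At this depth a difference was not detectable, and no fold change is given. In the model without the filter, where it was tested, Retnlb was not called in any comparison. Of the 10 genes of the type 2 cytokine pathway, 5 did not pass the filter on low counts either.

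Spdef (ENSMUSG00000024215.14, chromosome 17 from 27714352 to 27728955) encodes the ETS-family transcription factor of goblet and Paneth cell maturation. In KO crypts it measured 25.6, 23.5 and 26.1 CPM at day 2, 32.7, 32.9 and 36.1 CPM at day 7 and 42.9, 32.6 and 37.9 CPM at day 14. In WT crypts it measured 17.3, 20.7 and 22.4 CPM, 26.0, 21.4 and 29.1 CPM and 35.7, 20.1 and 26.5 CPM. All KO libraries were above all WT libraries at days 2 and 7, and at day 14 WT replicate 1 lay within the KO range. The log2 fold change was 0.31 at day 2, 0.41 at day 7 and 0.47 at day 14 (SE 0.17, 0.17 and 0.17), and none passed the test (edgeR adjusted p = 0.999, 0.109 and 0.101). A block of the replicate number within each day was added after the data were seen. With it, Spdef was called higher at day 7 (edgeR adjusted p = 0.029) and at day 14 (0.0221). KO and WT libraries of the same number deviated together at day 14 (r = 0.23, 0.18 and 0.16). At day 7 they did not do so throughout (r = -0.16, 0.21 and 0.08). With 1 library left out the day 14 value ran from 0.29 without WT replicate 2 (edgeR adjusted p = 0.356) to 0.71 without WT replicate 1 (0.0128), the only one of the 6 cases in which it passed. Neither the block with the same number across days nor DESeq2's Wald test called Spdef on any day.

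Gfi1 (ENSMUSG00000029275.18, chromosome 5 from 107716657 to 107726036) encodes a zinc finger repressor of secretory progenitors. It ranged from 4.07 to 9.07 CPM, which is 87 to 190 counts, and overlapped between the genotypes on each day. The log2 fold change was 0.23, -0.03 and 0.08 at days 2, 7 and 14 (95% intervals -0.27 to 0.73, -0.52 to 0.46 and -0.42 to 0.58), with edgeR adjusted p of 0.999, 0.95 and 0.891. The day 14 value was 0.39 without WT replicate 1 (edgeR adjusted p = 0.395). The gene overlaps A430072P03Rik, and as strand was not used, reads in the overlap cannot be told apart.

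The day 2 values had a common sign. All 9 tested genes had a log2 fold change above 0, from 0.10 for Fcgbp to 0.50 for Spink4, and for Muc2, Tff3, Clca1, Spdef and Spink4 every KO library lay above every WT library. That is 5 of 9 genes, whereas 4.3% of all tested genes had KO entirely above WT and 3.86% had KO entirely below. The genes are made in the same cells and are not independent of each other, and none passed the test by edgeR or DESeq2. With 1 library left out no day 2 value changed sign. The value then ran from 0.010 to 0.18 for Fcgbp, 0.015 to 0.31 for Zg16, 0.17 to 0.50 for Agr2 and 0.10 to 0.39 for Gfi1. The day 2 median was 0.37 for the Paneth cell markers, 0.04 for the enteroendocrine markers and -0.06 for the tuft cell markers. At day 7 Fcgbp, Clca1 and Spink4 lay entirely below WT and Spdef entirely above, against 17.7% and 15.9% of all tested genes. At day 14 the same 3 products lay entirely below and Zg16 entirely above, against 14.1% and 12.4%.

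The KO effects of different days were compared directly. Between days 2 and 7 the KO effect on Spink4 fell by 1.42 on the log2 scale (SE 0.28, edgeR adjusted p = 0.00585), the only one of the 9 genes to pass a comparison that 4.37% of all tested genes passed, and it passed with each of the 12 libraries of these days left out in turn (edgeR adjusted p = 0.0075 to 0.0231). The change was -0.94 for Clca1 (SE 0.28, edgeR adjusted p = 0.0652) and -0.92 for Fcgbp (SE 0.28, 0.0719), which did not pass in edgeR but did in DESeq2's Wald test (adjusted p = 0.0103 and 0.000208), which called 6.57% of all genes it tested. Between days 2 and 14 the change was -1.12 for Spink4 (SE 0.28, edgeR adjusted p = 0.0528), -1.08 for Clca1 (SE 0.28, 0.0712) and -0.55 for Fcgbp (SE 0.28, 0.467), and none of the 9 genes passed, with 2 at an unadjusted p under 0.05 (11.9% of all tested genes) and 1.04% of all tested genes called by edgeR. DESeq2 called 2 of the 9 (Clca1 and Spink4) and 2.57% of all genes it tested. Without WT day 14 replicate 1 the Spink4 change was -0.78 (edgeR adjusted p = 0.0892), and with the block within each day it passed (edgeR adjusted p = 0.0422), as did 1.65% of all tested genes. Between days 7 and 14 the KO effect changed for none of the 9 genes by edgeR or DESeq2, with 0 at an unadjusted p under 0.05 (4.46% of all tested genes), and edgeR called 0% and DESeq2 0.00995% of all genes. The comparisons of day 7 and of day 14 with day 2 share the day 2 libraries.

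Because Muc2 overlapped between the genotypes at days 7 and 14, the other genes were also set against it within each library, which needs no scaling between libraries. This comparison was chosen after the values were seen. For each 100 counts of Muc2 at day 7, the KO libraries held 131, 148 and 139.8 counts of Fcgbp and the WT libraries 272, 255 and 234, a KO mean at 55.1% of WT. At day 14 they held 156, 195 and 159 in KO and 188, 314 and 278 in WT, where WT replicate 1 fell within the KO range, and the KO mean was at 65.4% of WT with it and 57.4% without it. Already at day 2 the ratio was lower in every KO library, 252, 271 and 257 against 335, 299 and 349 in WT, on the day when Muc2 of every KO library lay above WT.

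For Spink4 the ratio at day 2 was 13.3 ± 1.05 counts per 100 Muc2 counts in KO and 12.7 ± 0.992 in WT (SD, n = 3 each), with overlap. At day 7 it was 5.49 ± 1.66 in KO and 10.5 ± 1.42 in WT, and at day 14 6.51 ± 0.173 in KO and 10.8 ± 2.35 in WT, without overlap on either day. The day 14 mean of KO was at 60.4% of WT, and at 69.0% without WT replicate 1. The ratio of Clca1 was at 94.6%, 63.7% and 55.5% of WT at days 2, 7 and 14, and did not overlap with WT on the later days. Tff3, Agr2 and Gfi1 kept ratios to Muc2 that overlapped between the genotypes on each day, at 87.2% to 108% of WT. The ratio of Zg16 was at 82.6%, 134% and 134% of WT at days 2, 7 and 14, with overlap on each day. The ratio of Spdef was at 92.6%, 131% and 127%, without overlap at day 7 only. Without WT replicate 1 the day 14 ratios of Zg16 and Spdef were at 120.1% and 136%, and that of Spdef then did not overlap. In all, 24 such ratios were put to an exact permutation test (two-sided), in which 3 against 3 libraries cannot give a p below 0.1, and after Benjamini-Hochberg adjustment the lowest p was 0.343. Taken in pairs of the same replicate number at day 14, the ratios of Fcgbp, Clca1 and Spink4 were lower in KO in 3 of 3 pairs, and those of Zg16 and Spdef were higher in 3 of 3. The other 3 genes had pairs in both directions. An exact paired permutation test (two-sided) of 3 pairs cannot give a p below 0.25, and these 5 genes were at that value.

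**Figure D3:**
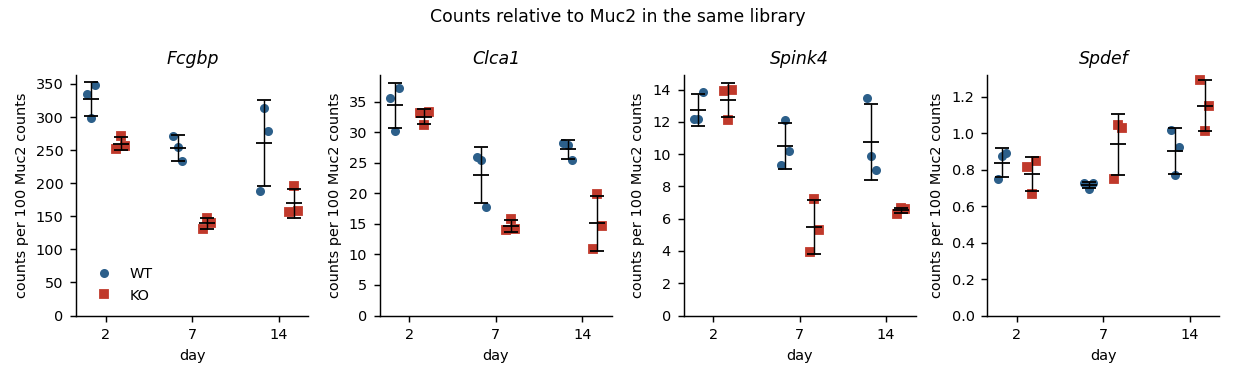
Counts of Fcgbp, Clca1, Spink4 and Spdef per 100 counts of Muc2 in the same library (vertical axis, from 0) by day, with 1 point per library for WT (blue circles) and KO (red squares) and black bars for the mean and SD of 3 libraries. The Fcgbp, Clca1 and Spink4 ratios of KO lie below those of WT at day 7, and for Fcgbp 1 WT library lies within the KO range at day 14.

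The goblet cell genes were also compared between days among WT mice, which had fewer tamoxifen injections at day 2 than later. None of the 9 genes passed between any pair of days by edgeR, in comparisons that passed 0.553% (day 7 against day 2), 1.61% (day 14 against day 2) and 0.0796% (day 14 against day 7) of all tested genes. At an unadjusted p under 0.05 there was 1 gene, 1 gene and 0 genes of the 9, against 22.4%, 20% and 5.18% of all tested genes. The first was Muc2, with a log2 fold change of 0.57 from day 2 to day 7 (SE 0.19, edgeR adjusted p = 0.0992), which DESeq2's Wald test called, together with 8.26% of all genes it tested. DESeq2 called none of the 9 in the other two comparisons, in which it called 8.38% and 0.244% of all genes it tested. The second was Spdef, with 0.44 from day 2 to day 14 (SE 0.17, edgeR adjusted p = 0.165).

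Other genes of the goblet cell programme were read from lists of transcription factors, of mucin synthesis and folding, and of further markers. Of 8 transcription factors at day 7, Creb3l1 rose (0.63 on the log2 scale, edgeR adjusted p = 0.015), Creb3l4 fell (-0.79, 0.000548) and Foxa2 fell (-0.79, 0.0272). That is 1 called higher and 2 called lower of 8, against 7.11% and 10.2% of all tested genes. Creb3l1 and Creb3l4 encode membrane-bound factors related to the response to endoplasmic reticulum load, and Foxa2 a forkhead factor. None of the 8 passed at day 14, with 2 at an unadjusted p under 0.05, which 21.6% of all tested genes had. Atoh1, the factor that commits cells to the secretory lineage, had log2 fold changes of 0.33, 0.24 and 0.37 at days 2, 7 and 14 (edgeR adjusted p = 0.999, 0.335 and 0.173) and did not pass. The median of the list was 0.06 at day 7 and 0.13 at day 14.

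Of 14 tested genes of mucin synthesis and folding, 1 rose at day 7 and 2 rose at day 14, against 7.11% and 3.23% of all tested genes called higher, and none fell. They were Kdelr3, a receptor that returns proteins to the endoplasmic reticulum (0.91 at day 7, edgeR adjusted p = 0.0138), Gcnt3, a glycosyltransferase of mucin O-glycans (0.77 at day 14, 0.00849), and Ern2, the stress sensor IRE1β of mucus cells (0.67 at day 14, 0.0253). The median was 0.15 and 0.13 on these days.

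Of 15 other goblet cell markers, 1 rose and 3 fell at day 7, and 2 rose and 3 fell at day 14. Among all tested genes, 7.11% were called higher and 10.2% lower at day 7, and 3.23% and 4.69% at day 14. Lrrc26, a potassium channel subunit of secretory cells, fell by 1.33 at day 7 and by 1.04 at day 14 on the log2 scale (edgeR adjusted p = 4.63e-06 and 0.000179). Guca2a, the precursor of guanylin, which activates intestinal guanylate cyclase C, fell by 1.29 and 1.27 (edgeR adjusted p = 0.0059 and 0.0131), and the protease gene Hgfac fell by 1.30 and 0.90 (2.11e-05 and 0.00144). The kallikrein gene Klk1 was the 1 that rose at day 7 (0.45, edgeR adjusted p = 0.0166), and Klk1 and the actin-severing Scin rose at day 14; Klk1 and Scin are named after their values were seen. The median of the list was -0.10 at day 7 and 0.14 at day 14, so that calls in both directions stood beside a centre near 0. None of the 5 tested transmembrane mucins passed on any day (0 of 5 at an unadjusted p under 0.05 at day 7, against 29.9% of all tested genes, and 1 of 5 at day 14, against 21.6%).

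**Figure D4:**
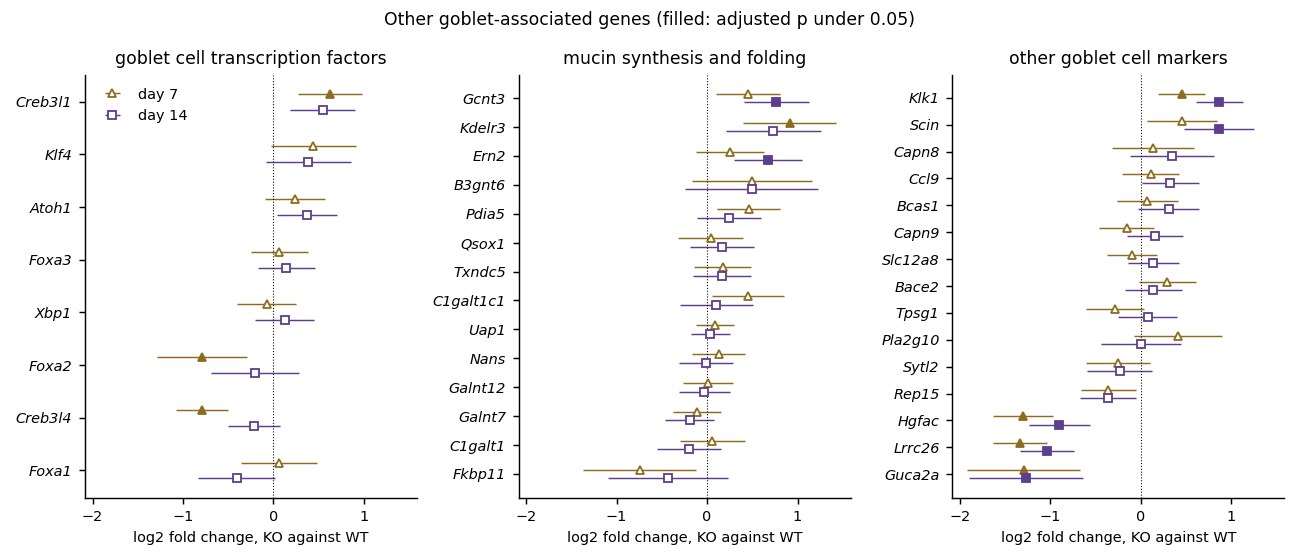
Log2 fold change of KO against WT (horizontal axis) with 95% confidence intervals from edgeR at day 7 (brown triangles) and day 14 (purple squares) for the tested genes of 3 lists, in the order of their day 14 values. Filled marks passed the test, and Guca2a, Lrrc26 and Hgfac are filled below 0 on both days.

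Markers of the other crypt cells moved with genotype on the days when Spink4, Fcgbp and Clca1 were low, and their part in the goblet cell results was not tested. Of 11 Paneth cell markers, 10 fell at day 7, with a median of -2.04 on the log2 scale and a summed level of 1619 to 4670.2 CPM in KO and 10440.2 to 16751 CPM in WT. The 3 lowest were Defa17 (-2.27), Clps (-2.23) and Ang4 (-2.20). At day 14, 1 of 11 passed, Ang4 (-1.63, edgeR adjusted p = 0.0271), with a median of -1.19 and sums of 6129.5 to 8393 CPM in KO and 10339 to 22816 CPM in WT. Of 8 stem cell markers, 6 fell at day 7 (median -0.98, sums of 516 to 1188 CPM in KO and 1829 to 2436 CPM in WT), led by Lgr5 (-1.59), Smoc2 (-1.34) and Olfm4 (-1.30), and only Smoc2 passed at day 14 (-0.70). All 12 enteroendocrine markers rose on both days, with medians of 1.24 at day 7 and 1.35 at day 14. Over all tested genes, 7.11% were called higher and 10.2% lower at day 7, and 3.23% and 4.69% at day 14. The Muc2 range overlapped between KO and WT on the same days.

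The calls in the following lists stand beside 7.11% of all tested genes called higher and 10.2% called lower at day 7. At day 14 these shares were 3.23% and 4.69%. Of 8 tested tuft cell markers, Dclk1 fell at day 7 (-1.04) and none passed at day 14. Of 10 enterocyte markers, Fabp1 (1.55) and Fabp2 (1.22) rose and Lct (-1.42) fell at day 7, and Sis (1.15) rose at day 14. Of 9 proliferation markers, Top2a fell at day 14 (-0.53) and none passed at day 7. In the type 2 cytokine pathway, which acts on goblet cells, 5 of 10 genes were tested, and Il33 (1.36) and the receptor gene Il4ra (0.50) rose at day 7. None of 10 immune cell markers passed (0 at an unadjusted p under 0.05 at day 7, against 29.9% of all tested genes, and 2 at day 14, against 21.6%), and of 10 stromal markers Vim (1.08) and Pecam1 (1.29) rose at day 7. At day 2 no gene of any of these lists passed. RNA of the gastric mucin Muc5ac was found at 30 to 256 counts in KO and 2 to 6 counts in WT libraries of day 7, whereas at day 14 it was highest in WT replicates 1 and 3 (735 and 814 counts, against 0 to 50 in KO). Its part in the goblet cell results was not tested.

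The genes whose level followed Muc2 most closely over the 18 libraries were taken as a description, from Pearson's r of log2 CPM. They were Ttc39a (r = 0.871), Hid1 (0.862), Gm44949 (0.862), Gm43808 (0.860) and Mcf2l (0.858). Gm44949 and Gm43808 overlap the genes Zfp710 and Tmem214, with which they may share reads. The 18 libraries share groups and the scaling to library size, and the values carry no test. Within the set, the r with Muc2 was 0.744 for Gfi1, 0.666 for Spdef, 0.532 for Agr2, 0.334 for Tff3 and 0.327 for Zg16, and it was -0.189 for Fcgbp, -0.172 for Clca1 and -0.0786 for Spink4. With the group means removed the last 3 changed sign, to 0.294, 0.370 and 0.331, while the other 5 were then 0.752, 0.606, 0.567, 0.324 and 0.275.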

How the data were processed

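RNA-Seq counts of ribosomal RNA-depleted total RNA were analysed from 18 libraries. The authors deposited 1 table of raw counts per gene, made with STAR 2.7.3 and featureCounts 1.6.4 on mm10, and the submitters' notes also name HTSeq. The file header names GENCODE release M23, the methods a later release. Strand was not used, a fragment over several genes counted for each of them, and multi-mapping fragments were left out.

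Groups came from the sample titles. The 20 genes that the study's sex comparison lists were removed before normalization, as the study left them out of later analyses, and the labels give no sex. The filter filterByExpr of edgeR 4.0.16 kept 21349 genes, whose counts were scaled with TMM and fitted with the robust quasi-likelihood method (limma 3.58.1, R 4.3.3) in 1 model of 6 group means. P-values were adjusted by Benjamini-Hochberg over all 21349 genes, with a threshold of 0.05. Each library is 1 of 3 mice per group. No 2 libraries were identical, and r of log2 CPM within groups was 0.971 to 0.990. The model was also run on simulated counts, as a check of the code and not of the results given here. Promoter windows were taken from RefSeq (GRCm38.p6), and the reference annotation given (another GENCODE release) was not used. Tables and plots used Python 3.11.15, pandas 2.3.3, scipy 1.17.1 and matplotlib 3.10.9.

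The 10 genes and 14 further lists were chosen with earlier results of these data known. All 10 genes are named. Of each list at most the 3 called genes with the largest change are named in a comparison, besides Atoh1, and the 5 genes most like Muc2. Klk1, Scin, Muc5ac and Tff1 are outside this rule and were chosen after their values were seen. At 12844642 to 31493484 counts per library, counting error is small for all but Gfi1 and Retnlb, and precision is set by the 3 mice per group. Replicate numbers were checked for pairing: deviations of KO and WT libraries of the same number from their group means correlated at 0.23, 0.18 and 0.16 at day 14, but at 0.05, 0.16 and 0.38 at day 2 and -0.16, 0.21 and 0.08 at day 7. The main model holds no pairing, also at day 14. Because of the day 14 values, a block of the replicate number within each day was added after this check. The Muc2 ratios of day 14 were also taken in pairs. Results were recomputed with the Wald test of DESeq2 1.42.0, edgeR with DESeq2's size factors, a replicate block over days, models of the compared groups alone, no filter, a minimum mean count of 50, the removed 20 genes kept, the 20 most abundant genes dropped, and each library left out.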

Additional observations from a re-analysis of the deposited data

Results flagged for a closer look

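The KO effect on Spink4 differed between days 2 and 7 by a test of the difference itself, which drew attention to it: the log2 fold change was 0.50 at day 2 and -0.93 at day 7, a difference of -1.42 (SE 0.28, edgeR adjusted p = 0.00585), with all 3 KO libraries above WT on the first day and all 3 below on the second.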

How the results depend on the processing

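Fcgbp and Spink4 were called lower at day 7 under every alternative that could test them. Of 526 alternative values of single genes, 482 kept their direction and their side of the threshold, 24 newly passed, 13 no longer passed and 7 changed sign. DESeq2's Wald test called 4 of the 9 genes at day 14 (Fcgbp, Clca1 and Spink4 lower and Zg16 higher; 9.76% of all genes it tested), 3 for the change of the KO effect from day 2 to day 7 (6.57%), 2 for that from day 2 to day 14 (2.57%), and 1 between WT days 2 and 7 (8.26%). Without a filter on low counts there were 2 calls at day 14 (4.66% of all genes), 2 for days 2 to 7 (2.81%) and 2 for days 2 to 14 (1.11%). With a mean count of at least 50 there were 3 for days 2 to 7 (6.44%). A model of only the groups compared gave 0 at day 14 (6.52%) and 2 for days 2 to 7 (3.67%). The replicate block over days gave 2 calls at day 7 (16.4%) and 1 at day 14 (7.36%), and changed no call other than that of Clca1 at day 7. The replicate block within each day, chosen after seeing the data, gave 3 calls at day 7 (Spdef in place of Clca1; 19.8% of all genes), 2 at day 14 (9.86%) and 1 for days 2 to 14 (1.65%). Fcgbp could not be tested with the 20 most abundant genes left out. The causes were not tested.

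With 1 library left out, the calls numbered 2 to 3 at day 7 (with 9.43% to 19% of all tested genes called), 0 to 2 at day 14 (4.73% to 6.08%), 1 for days 2 to 7 in each of 12 cases (1.98% to 5.96%), and 0 to 1 for days 2 to 14 (0.51% to 1.02%). There were 0 at day 14 without KO replicate 1 or KO replicate 3, Spdef alone without WT replicate 1, and 2 (Clca1 and Spink4) without WT replicate 2 or 3. For days 2 to 14 the 1 call was Clca1 without KO day 14 replicate 2, and Spink4 without WT day 14 replicate 2 or 3. Values near 0 changed sign: Muc2 at day 7 (-0.074 to 0.15), Agr2 at day 7 (-0.050 to 0.37) and day 14 (-0.27 to 0.28), and Gfi1 at day 7 (-0.15 to 0.11) and day 14 (-0.17 to 0.39).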

Other observations

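Among relatives of the 10 genes, Clca3b fell at day 7 (-0.84 on the log2 scale, edgeR adjusted p = 0.0135), and 9530053A07Rik fell at day 7 (-0.80, 0.00461) and day 14 (-0.62, 0.0469). These were the 2 of 15 tested relatives called at day 7 and the 1 at day 14, beside 17.3% and 7.92% of all tested genes. The median of the list was -0.17 at day 7 and -0.34 at day 14.

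The RNAs of Muc5ac and Tff1, the mucin and trefoil peptide of the gastric surface, were found in some libraries only and were named after their values were seen. Muc5ac had 0, 31 and 54 counts in KO and 0, 85 and 0 in WT at day 2, 256, 146 and 30 in KO and 2, 3 and 6 in WT at day 7, and 0, 50 and 0 in KO and 735, 0 and 814 in WT at day 14. Tff1 had 317, 124 and 34 counts in KO and 1, 0 and 3 in WT at day 7, and 0, 177 and 1 in KO and 280, 1 and 435 in WT at day 14. At day 7 all 3 KO libraries were above the WT libraries for both genes, and at day 14 WT replicates 1 and 3 were the highest. Neither gene passed the test on any day (edgeR adjusted p = 0.168 and 0.141 for Muc5ac, 0.128 and 0.584 for Tff1, at days 7 and 14). WT day 14 replicate 1, which had the highest Muc2, Tff3, Spink4, Clca1, Agr2, Spdef and Gfi1 of its group, was 1 of these libraries, and whether the gastric-type RNA bears on those values was not tested.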
